A study of Caenorhabditis elegans with 14 samples.

Results

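The association of each gene's RNA with polysomes was examined in Caenorhabditis elegans labelled pycr-1(wrm22), a strain named for a gene of proline synthesis. The measure was the log2 ratio of polysomal to total FPKM (fragments scaled by transcript length and by fragments mapped), called polysome association, where a value above 0 means a higher level in polysomal RNA. Of 41875 entries of a gene name and locus in the authors' deposited table, which are called genes, the 15425 that the authors' software had tested between polysomal and total RNA of these worms were taken, each counted once. In each tested gene the higher of both values was at least 0.311 FPKM. A gene absent from both fractions is therefore not among those counted, and a gene low in 1 fraction was tested only because of its level in the other.

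The study sequenced 14 libraries from synchronized gravid adults on day 1 of adulthood, raised at 20 °C. The mutant-labelled worms gave 4 libraries of total and 4 of polysomal RNA, and Bristol N2, the wild type, gave 3 of each. Both RNA samples of a strain came from lysates of worms that had been washed and lysed in 1 mM cycloheximide, an inhibitor that holds ribosomes on mRNA. The polysomal RNA was pooled from the part of a 15 to 60% sucrose gradient where mRNAs carry 3 or more ribosomes, so an mRNA with a single or a pair of ribosomes counts as absent from it. Total RNA was that of the lysate after a clearing spin at 12000 g, so RNA in the pellet is in neither sample. The labels do not describe the wrm22 allele. Each group is given as 1 pooled FPKM per gene, so values of single libraries, and the depth of the libraries, are unknown. The sign ± marks the standard error of a log2 value implied by the authors' test statistic.

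In a polysome, several ribosomes translate 1 mRNA at the same time, and the share of an mRNA found there is widely used as a measure of how actively it is translated. RNAs that are never translated, such as small nuclear RNAs, stay out of polysomes unless carried by a heavy complex. In the worm's germline many maternal mRNAs are stored in a repressed state by proteins that bind their 3′ ends, and histone and sperm mRNAs are made in large amounts for short periods. All FPKM, log2 values and adjusted p (Cuffdiff q-values) of single genes below come from the authors' deposited table.

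Polysomal RNA differed from total RNA for 50.8% of the genes tested at an adjusted p under 0.05. In polysomal RNA 3682 genes were higher (23.9%), 4159 were lower (27%) and 7584 did not pass. The spread was lopsided. Over 8197 protein-coding genes at 5 FPKM or more in both fractions the median was 0.12, and 332 genes were above 1 but 1037 were below -1. No gene of these exceeded 2, whereas 160 lay below -2 and 32 below -3. The highest was nspc-7 at 1.86 and the lowest trcs-1 at -4.22. The middle part of the distribution, from -0.52 to 0.54 between the 25th and 75th percentile, was wider than the median standard error of 0.28. FPKM does not hold the sum over genes fixed: it came to 1860424 in total and 840439 in polysomal RNA, and over protein-coding genes alone to 710807 and 791786. A value of 0 therefore means a level equal to the library scale, not an mRNA evenly shared. Centring on the coding median moves every log2 value by 0.12.

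**Figure D1:**
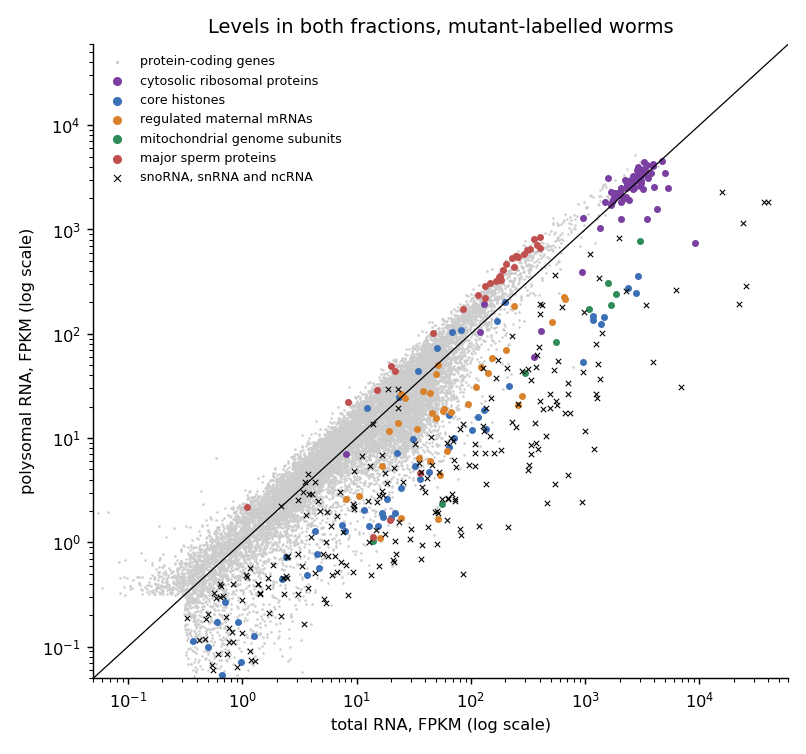
Total (x axis) against polysomal FPKM (y axis), both on log scales, for tested protein-coding genes (grey) and 6 named groups, mutant-labelled worms; the line marks equal levels. Major sperm protein genes lie mostly above the line (median log2 ratio 1.02), ribosomal protein genes near it (0.12), and core histones (-2.85), mitochondrial genome subunits (-2.81) and non-coding RNAs mostly far below it.

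RNAs that code for no protein stood far lower in polysomes than mRNAs. Of 14118 protein-coding genes tested, 3591 were higher (25.4%) and 3554 lower (25.2%), with a median of 0.08. Against that, small nuclear RNAs (spliceosomal RNAs) counted 0 higher and 24 lower of 42, with a median of -4.34 over the 30 with a level in both fractions. Small nucleolar RNAs, which guide rRNA modification, counted 0 higher and 38 lower of 132, with a median of -3.67 over 89, while 43 were listed at 0 in polysomal RNA. Their share of 28.8% lower is near the 27% of all genes, so they stand apart by their median and by having 0 higher. Long intergenic RNAs counted 0 higher and 28 lower of 55, with a median of -2.85, and other non-coding RNAs 1 higher and 62 lower of 149, with a median of -2.81. At 1 FPKM or more in both fractions these medians were -1.33 and -2.51. Most long intergenic RNAs were tested only through total RNA, as their median polysomal level was 0.198 FPKM. Of 18 antisense RNAs 1 was lower and 0 were higher, with a median of -1.78 that became 0.0325 at 1 FPKM or more in both fractions, and 4 tested tRNA genes were all listed at 0 in polysomal RNA, none passing.

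Single non-coding RNAs had some of the lowest values measured. The RNase P RNA rpr-1, which trims tRNA precursors, stood at 6889 FPKM in total and 30.8 in polysomal RNA, a log2 value of -7.81 ± 0.68 by the authors' table (adjusted p = 0.000207). The related RNase MRP RNA mrpr-1, which cuts rRNA precursors, went from 3926 to 53.9 FPKM (-6.19 ± 0.29). The small nucleolar RNAs ZK185.9 (22311 to 193 FPKM) and Y38F2AR.14 (25727 to 284 FPKM) had log2 values of -6.85 and -6.50, and the small nuclear RNAs F10D2.13 and sup-6 of -5.71 and -6.40. The lowest log2 value among genes with a level in both fractions, -8.58 ± 0.81, was that of lfor-1 (939 to 2.45 FPKM). The signal recognition particle RNA ZC155.8, part of the complex that docks ribosomes at the endoplasmic reticulum, stood at 39788 and 1832 FPKM (-4.44 ± 0.21). Its value lay near the small nuclear RNA median of -4.34 and below the other non-coding RNA median of -2.81. The long intergenic RNAs H36L18.2, also called lep-5, and linc-7 stood at -3.03 and -2.64. FPKM of RNAs shorter than a library fragment rests on an estimated length, so these levels are less certain than those of mRNAs.

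Ribosomal RNAs, which are part of the polysome itself, had too few tested genes to set a pattern. Of 5 tested, 1 was higher and 2 were lower, with a median of -0.22. The deposited values were 3114 and 2934 FPKM for rrn-3.1, which passed no test (-0.09 ± 0.63, the authors' adjusted p = 0.865), and 209 and 384 FPKM for the 5S gene rrn-4.2 (0.88 ± 0.47, adjusted p = 0.0119). The mitochondrial rRNAs MTCE.33 and MTCE.7 were lower in polysomal RNA, at -2.95 and -1.45. Nuclear ribosomal RNA genes are repeats, so the share of reads given to each copy is uncertain.

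Pseudogenes were also lower in polysomes, with 3 higher and 362 lower of 497 and a median of -2.75. Their median polysomal level of 0.288 FPKM lay under the lowest level at which genes were tested, so most were tested only through total RNA and had to be lower. Over those at 1 FPKM or more in both fractions the median was -1.64. Among them were pseudogenes of known families. The Piwi-family entry prg-2 stood at 117 and 6.44 FPKM (-4.18 ± 0.21), while its intact partner prg-1, which binds piRNAs, stood at 149.6 and 125 FPKM and did not pass (-0.25 ± 0.20, the authors' adjusted p = 0.130). Likewise wago-2 (-3.50), puf-10 (-3.16), cars-2 (-3.42), msp-42 (-3.57) and T13F2.9 (-5.29) were lower. The exception among those named was msp-52, annotated as a pseudogene, which was higher at 1.41 ± 0.33 (8.40 to 22.4 FPKM). Its sequence may share reads with other major sperm protein genes.

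**Figure D2:**
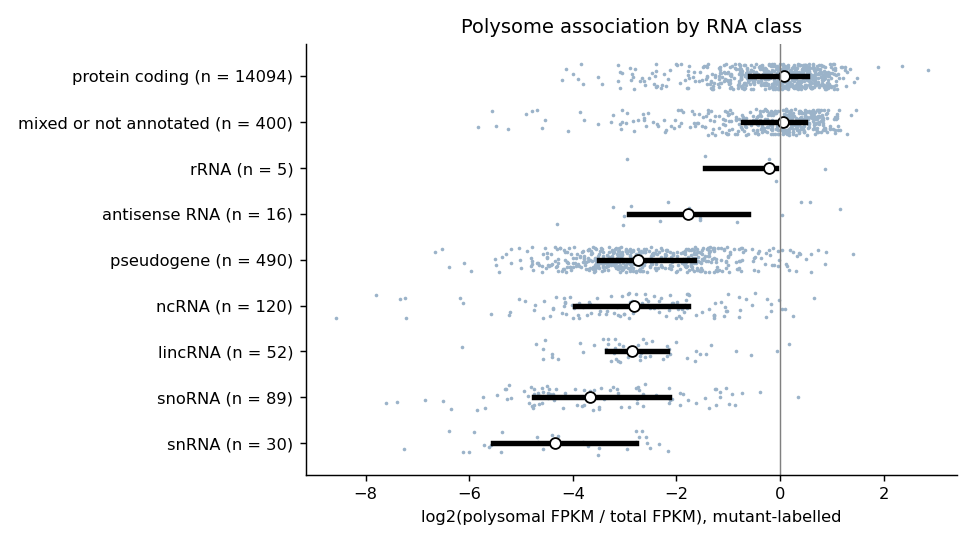
Polysome association (x axis, log2 ratio) by RNA class in the annotation, mutant-labelled worms; each point is a gene, a fixed random sample in large classes, the bar spans the quartiles and the open circle is the median. Medians were 0.08 for protein-coding genes and between -1.78 and -4.34 for pseudogenes, antisense, long intergenic, small nuclear, small nucleolar and other non-coding RNAs.

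Among coding genes at both ends, short secreted defence peptides led the rises. The 10 largest rises comprised nspc-7 and nspe-7 of 2 nematode-specific peptide families, the epidermal antimicrobial peptide genes nlp-27, nlp-29, nlp-30, nlp-33 and cnc-4, the haem transporter gene hrg-4, and the transthyretin-related genes ttr-6 and ttr-8. In the authors' deposited table nlp-29 stood at 43.5 and 131 FPKM (1.59 ± 0.23), nlp-27 at 139 and 404 FPKM (1.54 ± 0.21), nlp-30 at 4.42 and 14.5 FPKM (1.72 ± 0.31) and hrg-4 at 6.89 and 19.9 FPKM (1.53 ± 0.29), each with an adjusted p of 0.000207. The 10 largest falls were F22F4.4, nos-2, T21C9.13, fbxa-215, trcs-1, nos-1, his-67, F23A7.8, Y48G1A.2 and F08F3.6. Of these F22F4.4 had 47.7 and 1.18 FPKM (-5.33 ± 0.34) and F23A7.8 had 778 and 48.1 FPKM (-4.01 ± 0.26). The F-box gene fbxa-215 had 77.8 and 4.08 FPKM (-4.25 ± 0.25), and trcs-1, which resembles arylacetamide deacetylases, had 175 and 9.41 FPKM (-4.22 ± 0.21). F22F4.4 and F23A7.8 code for only 56 and 67 residues, while the other falls with a coding sequence ran from 103 to 428.

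Maternal mRNAs known to be held back by RNA-binding proteins were almost all lower in polysomes. Of 36 tested, 0 were higher and 32 lower, with a median of -1.65 against 0.03 over all genes. The translational repressor gene nos-2, whose protein appears only in germ cells of the embryo, had the lowest value: 51.6 FPKM in total and 1.69 in polysomal RNA, and the authors gave -4.93 ± 0.55 (adjusted p = 0.000207). The sex-determination gene fem-3 (24.7 to 1.70 FPKM, -3.87 ± 0.30), the phosphatase gene cdc-25.3 (-3.85 ± 0.67), the cell-fate regulators pos-1 (256 to 20.8 FPKM, -3.63 ± 0.21) and spn-4 (283 to 25.1 FPKM, -3.49 ± 0.20), the Wnt ligand gene mom-2 (-3.58 ± 0.24) and the homeobox gene pal-1 (-3.04 ± 0.26) followed. All of these stood lower than -3.

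Other germline genes, among them further members of the same list of 36, stood in a middle range. The Notch receptor gene glp-1 was at -1.69 ± 0.20, and the oocyte genes oma-1 (a maturation factor), cpg-1 (an eggshell proteoglycan), egg-1 and rme-2 (the yolk receptor) ran from -1.76 to -1.54. The repressor gene gld-1, abundant in the distal germline, had 237 and 183 FPKM (-0.37 ± 0.20, the authors' adjusted p = 0.0200). A pair of near-identical PUF-family genes differed: fbf-1 fell by 0.72 on the log2 scale (23.1 to 13.99 FPKM), while fbf-2 did not pass (24.7 to 26.6 FPKM, 0.11 ± 0.21, the authors' adjusted p = 0.551), and reads of the pair may be shared. Among the 4 genes of that list that did not pass was also lin-41, an oocyte regulator (-0.27 ± 0.21, the authors' adjusted p = 0.112).

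Genes for P granule components and other germline RNA-binding proteins went both ways, with 10 higher (22.7%) and 20 lower (45%) of 44. Their median was -0.27, and of all genes 23.9% were higher and 27% lower. Higher were car-1 (234.7 to 548 FPKM, 1.23 ± 0.21 in the authors' deposited table) and cgh-1 (308 to 460.3 FPKM, 0.58 ± 0.22), whose proteins bind stored mRNAs, and the helicase gene glh-1 (0.72 ± 0.21). Lower were nos-1 (-4.21), puf-6 (-2.76), meg-1 (-2.37), and gld-3 (-2.02), while pgl-1 did not pass (0.22 ± 0.21, the authors' adjusted p = 0.215). Of the Argonautes, the proteins that carry small RNAs, 4 were higher and 11 lower of 21, 2 of the lower ones being pseudogenes, with csr-1 at 0.45 ± 0.21 and alg-5 at -2.74 ± 0.23. The list of maternal mRNAs and that of germline RNA-binding proteins share 4 members, among them nos-2, so they are not separate counts.

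Replication histones were the lowest of the large protein-coding families, and replacement histones were not. Of 55 core and linker histone genes tested, 3 were higher and 40 lower, with a median of -2.85. The H4 gene his-64 had 2768 and 246 FPKM (-3.50 ± 0.20), his-62 had 2874 and 355 FPKM (-3.02 ± 0.19), his-63 had 1473 and 145 FPKM (-3.35 ± 0.20), his-61 had 1172 and 149.5 FPKM (-2.97 ± 0.20), and his-67 had 964 FPKM in total RNA (-4.16 ± 0.21), all in the authors' deposited table with an adjusted p of 0.000207. The replacement H3 genes his-72 (198 to 199.9 FPKM, 0.01 ± 0.20, the authors' adjusted p = 0.949) and his-71 (0.33 ± 0.23, adjusted p = 0.0751) did not pass, and his-74 fell by only 0.34. The linker histone gene his-24 (0.67 ± 0.24) and the H2A gene his-35 (0.61 ± 0.21) were higher. Copies of a histone type are near-identical, so the split between single copies is uncertain. Of the 55, 15 were under 5 FPKM in total RNA, with a median polysomal level of 0.174 FPKM, so the filter on low values could fix their direction.

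Genes that copy DNA fell as well, by less. Of 35 tested, 1 was higher and 31 lower, with a median of -0.85. The origin recognition gene orc-1 had 50.2 and 8.34 FPKM (-2.59 ± 0.22), the ribonucleotide reductase gene rnr-2 had 160.0 and 59.4 FPKM (-1.43 ± 0.20), and the helicase subunit mcm-7 had 76.5 and 42.03 FPKM (-0.86 ± 0.20), by the authors' deposited table. All 5 origin recognition genes and 7 of 8 mcm genes were lower, while mcm-2 did not pass (0.04 ± 0.20, the authors' adjusted p = 0.852). The clamp loader gene rfc-2 was the member that was higher (0.46 ± 0.21). Nuclear pore genes counted 2 higher and 14 lower of 26, with a median of -0.37. Their values ran from npp-26 at -2.33 to npp-25 at 0.54 ± 0.22, with npp-14 at -0.93 ± 0.20.

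Ribosomal protein mRNAs lay close to the library scale, except the shortest. Of 84 cytosolic ribosomal protein genes 7 were higher and 13 lower, with a median of 0.12, which becomes -0.0034 when centred on coding genes. The 2 lowest were rpl-41.2 (9075 to 744 FPKM, -3.61 ± 0.21) and rpl-41.1 (355 to 59.9 FPKM, -2.57 ± 0.22), which code for 22 residues in the annotation used here. Next among short ones were rpl-39 with 51 residues (4264 to 1573 FPKM, -1.44 ± 0.20) and rpl-29 with 62 residues (5292 to 2501 FPKM, -1.08 ± 0.20). Of the 11 members under 100 residues 9 were lower and 0 higher (median -0.54), and of the 73 longer ones 4 were lower and 7 higher (median 0.14). The split at 100 residues was one of the length classes used for all genes. Long members that were lower included rps-12 (3490 to 1267 FPKM, -1.46 ± 0.20). Paralogues with nearly the same protein differed, as rpl-11.1 stood at 1586 and 3094 FPKM (0.96 ± 0.22) and rpl-11.2 at 938 and 388 FPKM (-1.27 ± 0.20), and rpl-25.2 at 0.20 ± 0.21 (adjusted p = 0.274) and rpl-25.1 at -1.93 ± 0.20, all in the authors' deposited table.

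Factors that run translation were mostly higher in polysomes. Of 44 translation factor genes 31 were higher and 4 lower, with a median of 0.60. All 11 genes of eIF3, the scaffold of the initiation complex, were higher, from eif-3.D (125.9 to 178 FPKM, 0.50 ± 0.21) to eif-3.H (0.89 ± 0.23). The cap-binding genes ife-1, ife-2, ife-3 and ife-4 were higher, with log2 values from 0.82 to 0.99, whereas ife-5 was lower (8.73 to 5.19 FPKM, -0.75 ± 0.30). The same split held for the eIF5A genes, as iff-1 was at 0.86 ± 0.21 and iff-2 at -0.61 ± 0.20 in the authors' deposited table. The helicase gene inf-1 had the highest value, 1.04 ± 0.21. The elongation factor genes eef-1A.1 (6127 to 8911 FPKM) and eef-2 (2167 to 3150.0 FPKM) were both at 0.54, and the poly(A)-binding protein gene pab-1 was lower at -0.37 ± 0.22 (the authors' adjusted p = 0.0427).

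Genes that charge tRNAs and build ribosomes followed the factors in part. Of 32 aminoacyl-tRNA synthetase genes 19 were higher and 4 lower, with a median of 0.51. Those with symbols ending in -1 counted 17 higher and 0 lower of 20, with nars-1 the highest (104.3 to 192 FPKM, 0.88 ± 0.20). Those ending in -2, which in most pairs name the mitochondrial enzyme, counted 2 higher and 4 lower of 12, with rars-2 at -0.94 ± 0.22. Of the 4 lower ones 1 was the pseudogene cars-2 (-3.42). In contrast, mitochondrial ribosomal protein genes were higher in 36 and lower in 1 of 70, with a median of 0.40. In the authors' deposited table mrps-21 stood at 0.91 ± 0.23, mrpl-12 at 0.86 ± 0.23 and the single lower gene, mrps-11, at -0.68 ± 0.23. Ribosome biogenesis genes counted 16 higher and 4 lower of 44 (median 0.23), with the fibrillarin gene fib-1 at 317 and 565 FPKM (0.84 ± 0.21), the nucleolar gene nol-58 at 0.69 ± 0.21 and the exosome gene exos-3 at -0.79 ± 0.22.

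Proteasome and chaperonin genes were mostly higher. Of 33 proteasome genes 29 were higher and 1 lower, with a median of 0.56. All 14 genes of the proteolytic core were higher (median 0.81), among them pas-4 (89.6 to 185 FPKM, 1.05 ± 0.20), pas-5 (0.98 ± 0.20) and pbs-4 (0.92 ± 0.21) in the authors' deposited table. The regulatory particle counted 15 higher and 1 lower of 19 (median 0.37), the lower gene being rpn-6.2 (-0.44 ± 0.22). All 8 genes of the cytosolic chaperonin, a ring that folds actin and tubulin, were higher, from cct-1 (0.48 ± 0.20) to cct-7 (128 to 251 FPKM, 0.97 ± 0.22). Of 21 genes with hsp symbols and related chaperone genes 9 were higher and 1 lower (median 0.48), with hsp-1 at 1113 and 2104 FPKM (0.92 ± 0.25) and hsp-60, the mitochondrial chaperonin gene, at 0.78 ± 0.21. Genes of secretory entry and folding in the endoplasmic reticulum counted 14 higher and 2 lower of 31 (median 0.29), with trap-2 at 0.76 ± 0.20 and dnj-20 at -1.57 ± 0.20.

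Respiratory chain mRNAs split by the genome that codes them. Of 67 nuclear genes 49 were higher and 1 lower, with a median of 0.43, led by cox-4 (223 to 439 FPKM, 0.97 ± 0.20) and asb-1 (147 to 284 FPKM, 0.95 ± 0.20). All 9 entries of the mitochondrial genome were lower, with a median of -2.81, from nduo-2 (56.5 to 2.33 FPKM, -4.60 ± 0.45) to ctc-1 (3016 to 777 FPKM, -1.96 ± 0.23) in the authors' deposited table. Mitochondrial mRNAs are translated by ribosomes inside the organelle, and several of these entries join neighbouring genes of the polycistronic transcript. Of 19 glycolysis genes 16 were higher and 1 lower (median 0.67), with ldh-1 (49.99 to 108 FPKM, 1.11 ± 0.21) and gpd-3 (0.96 ± 0.20) at the top and the hexokinase gene hxk-1 at -1.31 ± 0.20.

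Sperm mRNAs had the highest median of the lists described. Of 33 major sperm protein genes, which build the crawling sperm's cytoskeleton, 29 were higher and 3 lower, with a median of 1.02. Their 30 coding entries counted 28 higher and 1 lower. In the authors' deposited table msp-50 stood at 229 and 528 FPKM (1.21 ± 0.21) and msp-152 at 246 and 558 FPKM (1.18 ± 0.20), while msp-74 stood at 13.96 and 1.14 FPKM (-3.62 ± 0.73). These genes are near-identical copies, so single values are uncertain. Small sperm families counted 18 higher and 0 lower of 27 (median 0.61), with ssq-1 at 67.4 and 165 FPKM (1.29 ± 0.21). The spe and fer genes, named for sperm defects, counted 8 higher and 3 lower of 30 (median 0.20). Their share of 26.7% higher is near the 23.9% of all genes, and 10% were lower against 27%. Among them spe-39, which also acts in lysosomal trafficking, stood at -1.91 ± 0.22. Yolk protein genes, expressed in the adult intestine, counted 5 higher and 0 lower of 6, with vit-1 at 617 and 1127 FPKM (0.87 ± 0.28) and vit-2 at 1836 and 2953 FPKM (0.69 ± 0.34). The sixth, vit-6, was also above 0 (0.56 ± 0.40) but did not pass (the authors' adjusted p = 0.0987).

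Structural genes of muscle and cuticle were mostly higher. Thick and thin filament genes counted 19 higher and 1 lower of 29 (median 0.45), led by the troponin I gene tni-3 (39.8 to 86.8 FPKM, 1.12 ± 0.22) and the tropomyosin gene lev-11 (351 to 736 FPKM, 1.07 ± 0.22), with the troponin T gene tnt-3 lower at -0.41 ± 0.23. Actin and tubulin genes counted 13 higher and 0 lower of 16 (median 0.55), with tba-4 at 1.00 ± 0.20. Collagens of the col family counted 80 higher and 4 lower of 120 (median 0.59). In the authors' deposited table col-3 was at 0.98 ± 0.25, col-180 at 62.6 and 119.7 FPKM (0.93 ± 0.22) and col-144 at -0.38 ± 0.22. Collagens known from body-shape mutants counted 11 higher and 1 lower of 20 (median 0.54), the lower one being bli-6 (246 to 175 FPKM, -0.49 ± 0.22).

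Secreted and detoxifying families had medians above 0. Transthyretin-related genes, which encode small secreted proteins, counted 40 higher and 0 lower of 56 (median 0.99), with ttr-8 at 1.50 ± 0.25. Antimicrobial peptide genes counted 28 and 0 of 54 (median 0.75), lysosomal protease and lysozyme genes 24 and 0 of 33 (median 0.68), glutathione S-transferases 24 and 1 of 39 (median 0.79), glucuronosyltransferases 33 and 0 of 56 (median 0.54) and cytochrome P450 genes 25 and 6 of 50 (median 0.52). Values in the authors' deposited table were 663 and 1405 FPKM for the cathepsin gene cpl-1 (1.08 ± 0.22), 13.7 and 30.6 FPKM for gst-4 (1.16 ± 0.23), 106 and 204 FPKM for ugt-26 (0.94 ± 0.21) and 100.7 and 181 FPKM for cyp-14A5 (0.85 ± 0.22). C-type lectins counted 60 higher and 13 lower of 130 (median 0.65), but clec-87, an eggshell component made in the germline, had 579 and 53.96 FPKM (-3.42 ± 0.20).

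Families of regulators and ubiquitin ligase adaptors were less uniform. Nuclear hormone receptors counted 10 higher and 53 lower of 184 (median -0.17). Their share of 28.8% lower is near the 27% of all genes, but only 5.4% were higher against 23.9%. Among them nhr-97 was at 75.5 and 19.5 FPKM (-1.95 ± 0.20) and nhr-69 at 0.58 ± 0.23. F-box genes, adaptors of ubiquitin ligases, counted 17 higher and 68 lower of 174 (median -0.46). The median was -0.23 over 135 coding entries and -2.52 over 34 pseudogenes, and 0.03 over the entries at 1 FPKM or more in both fractions. Genes of the MATH and BATH families, also ubiquitin ligase adaptors, counted 7 higher and 31 lower of 58 (median -1.05). Their 50 coding entries counted 23 lower with a median of -0.70, and all 6 pseudogenes were lower (median -3.63). The gene bath-30 was at 34.6 and 5.70 FPKM (-2.60 ± 0.25). Their partners, the Skp1-related genes, counted 13 higher and 3 lower of 20 (median 0.71), with skr-4 at 16.3 and 41.1 FPKM (1.34 ± 0.23 in the authors' deposited table). Of 58 splicing factor genes 17 were higher (29.3%) and 13 lower (22.4%), near the 23.9% and 27% of all genes. Their median was 0.07, and -0.05 when centred on coding genes. All 7 genes of the Sm core (snr) were higher, with a median of 0.90 and snr-5 at 178 and 388 FPKM (1.12 ± 0.21), whereas rnp-1 was lower (-1.53 ± 0.22). Of 7 lsm genes, grouped by symbol and not by complex, 4 were higher and 1, lsm-1, was lower (-1.24 ± 0.22), with a median of 0.58. Neuropeptide and insulin-like genes counted 23 higher (18%) and 17 lower (13.3%) of 128, both shares under those of all genes (median 0.04, -0.08 when centred). Of the 1630 chemoreceptor genes listed only 38 were tested, 8 of them higher (21%) and 11 lower (29%), near the shares of all genes.

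**Figure D3:**
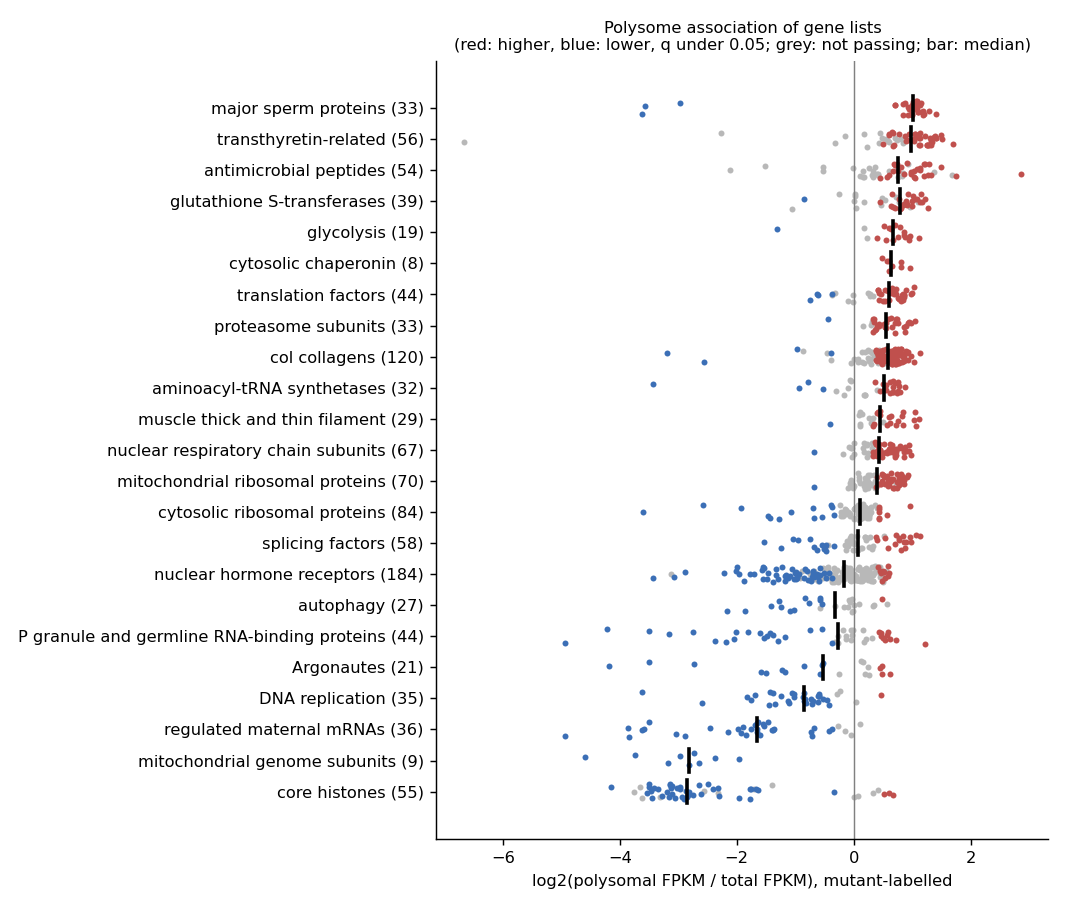
Polysome association (x axis, log2 ratio) of the tested members of 23 gene lists, mutant-labelled worms; red points were higher and blue points lower at an adjusted p under 0.05, grey points did not pass, bars are medians and the number of genes is in brackets. The medians run from 1.02 for major sperm proteins to -2.85 for core histones.

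Genes of proline metabolism were mostly higher in polysomes, both in wild type and in the worms whose label names one of them. Of 7 tested in mutant-labelled worms, 6 were higher and 0 lower, with a median of 0.67. The wild-type median was 0.87. The value was lower in mutant-labelled worms for 6 of the 7, and 0 passed the test between strains. The gene pycr-1 itself, listed as M153.1 (chromosome X, 12146832 to 12148529, plus strand, build WBcel235), encodes pyrroline-5-carboxylate reductase and had 20.3 FPKM in total and 40.8 in polysomal RNA, which the authors gave as 1.01 ± 0.23 (adjusted p = 0.000207). In wild type it had 4.91 and 12.6 FPKM (1.36), so its total level was higher, not lower, in mutant-labelled worms. Transcripts of the labelled gene were thus present and in polysomes, and a gene-level value does not show whether a part of the transcript is missing. The proline-breaking genes alh-6 (51.1 to 88.8 FPKM, 0.80 ± 0.20) and prdh-1 (0.67 ± 0.25), the ornithine aminotransferase gene oatr-1 (0.69 ± 0.20) and pycr-4 (0.53 ± 0.27) were higher too, while alh-13, of the first steps of proline synthesis, did not pass (39.7 to 60.8 FPKM, 0.61 ± 0.46, the authors' adjusted p = 0.135).

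Genes of the methionine cycle, which the study's title names, counted 10 higher and 2 lower of 22 with a median of 0.34. Higher were cth-2 of transsulfuration (147 to 277 FPKM, 0.91 ± 0.21), the adenosylhomocysteinase gene ahcy-1 (1646 to 2442 FPKM, 0.57 ± 0.24) and the S-adenosylmethionine synthetase gene sams-1 (317 to 453 FPKM, 0.52 ± 0.23, an entry shared with ucr-2.1), in the authors' deposited table. The methionine synthase gene metr-1 (106 to 103.7 FPKM, -0.03 ± 0.20, the authors' adjusted p = 0.891) and sams-3 (-0.11 ± 0.22, adjusted p = 0.573) did not pass, and the dihydrofolate reductase gene dhfr-1 was lower (-0.64 ± 0.22).

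Regulators of stress and of translation itself leaned the other way, with 3 higher and 9 lower of 20 and a median of -0.26. The transcription factor gene atf-4, listed as atf-5, had 40.3 and 10.9 FPKM (-1.89 ± 0.23). Its mRNA is known for upstream reading frames that keep ribosomes from its main frame in unstressed cells. The eIF2 kinase gene gcn-2 (-0.82 ± 0.20), the phosphatidylinositol 3-kinase adaptor gene aap-1 (-1.32 ± 0.34) and the TOR kinase gene let-363 (-0.42 ± 0.22) were lower, whereas the bZIP gene cebp-1 was higher (9.20 to 18.1 FPKM, 0.98 ± 0.24 in the authors' deposited table). Autophagy genes counted 1 higher and 12 lower of 27 (median -0.32). Among them epg-8 (27.9 to 6.24 FPKM, -2.16 ± 0.46) and bec-1 (-1.25 ± 0.23) were lower and epg-3 was higher (0.49 ± 0.21). The highest value was that of epg-2 (0.56). The ubiquitin-like gene lgg-1 did not pass (299 to 279 FPKM, -0.10 ± 0.20, the authors' adjusted p = 0.595).

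Oocyte markers were mostly lower in polysomes, and markers of sperm, intestine, muscle and epidermis were more often higher than lower. Of 10 germline and oocyte markers 1 was higher and 8 lower (median -1.55), and their summed level was 2879 FPKM in total and 1382 in polysomal RNA. Sperm markers counted 6 higher and 0 lower of 8 (852 to 1590.0 FPKM summed), intestine markers 5 and 0 of 8 (7970.0 to 11347 FPKM), muscle markers 6 and 0 of 8 (3234 to 4995 FPKM) and epidermis markers 4 and 1 of 8 (1331 to 1950.0 FPKM). Neuron markers counted 1 higher and 3 lower of 8 (139.9 to 123.1 FPKM summed), and flp-1 was the higher one at 0.60 ± 0.24. Of 8 embryo markers 3 were tested and 1 was higher, and their summed level was 9.08 FPKM in total RNA. Between strains, a shift in the number of cells of a type and one in the RNA per cell cannot be told apart in whole worms. Both fractions of a strain come from the same kind of lysate, but whether tissues released their polysomes equally was not tested.

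Polysome association did not move steadily with abundance. With genes classed by their total FPKM in wild type, whose libraries the ratio does not use, the median was 0.18 under 1 FPKM (2458 genes), 0.17 from 1 to 5 (3404), 0.19 from 5 to 20 (2828), -0.28 from 20 to 100 (4204) and 0.29 at 100 and over (1224). In the class from 20 to 100 FPKM 44.6% of genes were lower, against 25% at 100 and over and 21.4% from 5 to 20. Classed by the geometric mean of both fractions, the class from 20 to 100 stood at 0.05, that from 5 to 20 at 0.0056 and the highest at 0.52. Classed by total FPKM of mutant-labelled worms, the class from 20 to 100 stood at -0.15, with 40.65% lower. Both of these measures hold values that the ratio uses, so class and ratio are tied. Coding length showed a steadier order. Medians were 0.03 under 100 coded residues (831 genes), 0.32 from 100 to 200 (2546), 0.16 from 200 to 400 (4834), 0.0057 from 400 to 800 (4295) and -0.19 at 800 and over (1567). Spearman's rho across genes was -0.154 over 14049 genes and -0.244 over the 8184 at 5 FPKM or more, as a description of genes that are not independent replicates and that share libraries. The shortest class lay below the next one, with 19.6% of its genes lower and 16.97% higher. At 5 FPKM or more in both fractions it still lay below the next (0.18 and 0.39), but 17.1% of its genes were lower and 28.8% higher.

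**Figure D4:**
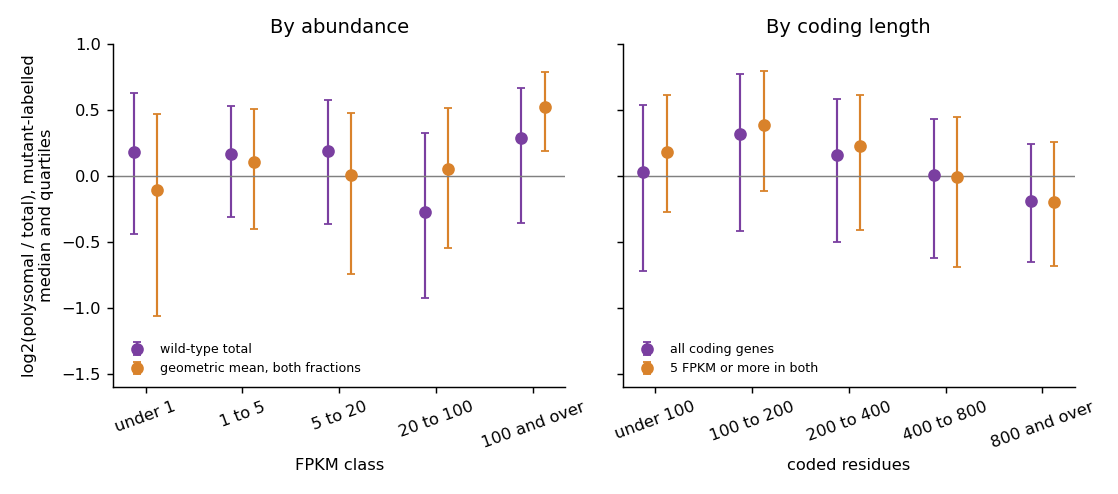
Median polysome association (y axis, log2 ratio, with quartiles) by FPKM class (left) and by coded residues (right), protein-coding genes of mutant-labelled worms, with a second class or filter in orange. The classes at 100 FPKM and over stand highest (0.29 and 0.52), and medians fall from 0.32 at 100 to 200 residues to -0.19 at 800 and over.

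The pattern was shared with the wild type to a large extent. Over 7504 coding genes at 5 FPKM or more in all 4 groups, Pearson's r between both strains' log2 values was 0.966 and Spearman's rho 0.969, from libraries the strains do not share, as a description across genes. Of 7699 genes that passed in mutant-labelled worms and were tested in wild type, 6613 passed in both, and 6611 of these had the same sign. The spread was 0.81 (SD across genes) in mutant-labelled worms and 0.90 in wild type. With variances divided by the number of libraries, a Wald test adjusted over 14665 genes called 320 (2.18%), of which 150 were higher (1.02%) and 170 lower (1.16%) in mutant-labelled worms. With variances as the authors' statistics stand it called 9, 7 higher and 2 lower, so the count depends on the variance chosen, and which is right could not be settled from pooled values.

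A few genes differed under both variances. The GABA receptor gene unc-49 stood at 9.07 and 6.60 FPKM in mutant-labelled worms (-0.46 ± 0.36) and at 46.4 and 5.62 FPKM in wild type (-3.05 ± 0.27), a difference of 2.59 (Wald test with variances from the authors' Cuffdiff statistics, adjusted p = 1.12e-23 divided and 3.23e-05 as they stand). For nspc-7 the authors' deposited table gave 1.86 in mutant-labelled worms and -0.35 in wild type, a difference of 2.21. For F33D11.16 it gave -3.68 and 0.92, a difference of -4.60. That gene stood at 14.6 and 1.13 FPKM in mutant-labelled worms. In wild type it stood at 1.08 and 2.05 FPKM and did not pass (the authors' adjusted p = 0.2503). Y57G11C.38 and T09B9.1 differed by 2.32 and 1.79. The total RNA of unc-49 was lower in mutant-labelled worms, while its polysomal levels were close. The total RNA of F33D11.16 was higher in mutant-labelled worms, while its polysomal levels did not pass between strains (the authors' adjusted p = 0.2555).

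Among lists, ribosomal protein genes stood lower in mutant-labelled worms than in wild type, with medians of 0.12 and 0.44 and a lower value in 81 of 84 genes. Of these 8 passed the test with divided variances, against 1.16% of all genes, and 0 passed with variances as they stand. Among the 8 were rpl-38 (-0.54 and 0.06), rpl-39 (-1.44 and -0.95) and rpl-41.2 (-3.61 and -3.08 in the authors' deposited table). The median difference over all 14665 genes was -0.04 and that of ribosomal protein genes -0.29. Such a shift was not particular to them. Body-shape collagens stood at -0.31 (18 of 20 lower), cytochrome P450 genes at -0.25 (40 of 48) and col collagens at -0.23 (103 of 117). Ribosome biogenesis genes went the other way, at 0.19 with 3 of 44 lower. Of the regulated maternal mRNAs 11 were lower and 1 higher in mutant-labelled worms with divided variances, against 1.16% and 1.02% of all genes. With variances as they stand 0 passed. The medians were -1.65 and -1.20, but the list did not shift as a whole. Its median difference was -5.3e-05, and 18 of 36 genes were lower in mutant-labelled worms. The oocyte genes cpg-1 (-1.65 and -0.73), egg-1 (-1.76 and -1.02), oma-1 (-1.65 and -0.93) and rme-2 (-1.54 and -1.01) were among the 11 that passed as lower. Summed germline and oocyte markers stood at 2879 FPKM in total RNA of mutant-labelled worms and 5139 in wild type, and the part of this in the difference was not tested. nos-2, the lowest of the list, stood at -4.93 and -5.11.

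**Figure D5:**
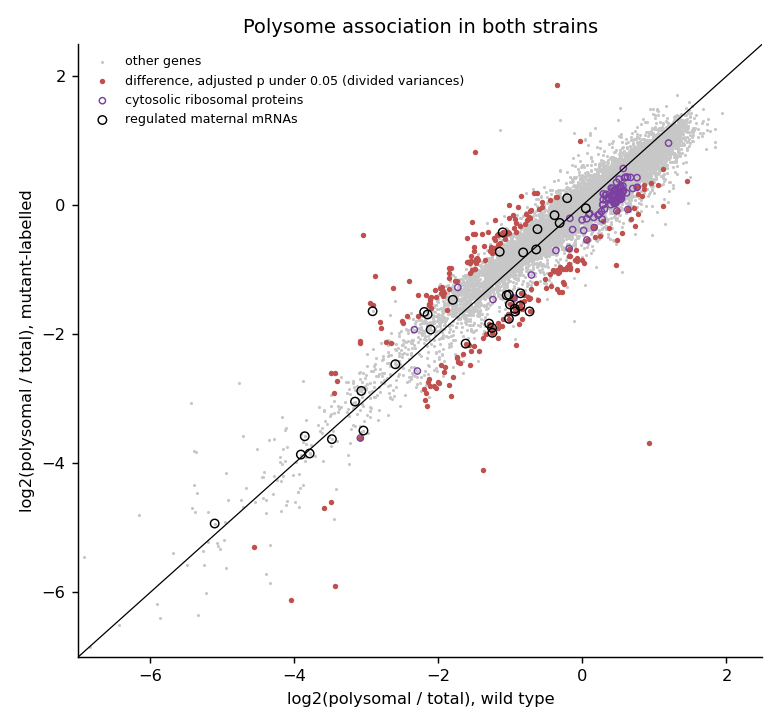
Polysome association (log2 ratio) in wild type (x axis) against mutant-labelled worms (y axis) for genes at 1 FPKM or more in all 4 groups; red points differ at an adjusted p under 0.05 with divided variances, and the line marks equal values. Most genes lie near the line (r = 0.966 at 5 FPKM or more), and purple circles, ribosomal protein genes, lie mostly below it (81 of 84), while black circles are regulated maternal mRNAs.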

How the data were processed

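The authors deposited 1 table with a pooled FPKM per gene and group, together with the log2 fold change, test statistic (a score), p-value and q-value of each pair of groups. The submitters' processing notes name Cuffdiff 2.2.1, StringTie 1.3.4d, HISAT2 2.1.0, FastQC 0.11.7 and build WBcel235. How they were set, whether strand was used and how multiply matched reads were counted are not given in the sources used here. Near-identical, overlapping and antisense genes are therefore uncertain. Depth is unknown. About 12000 worms were harvested per genotype and replicate, and whether these were separate cultures is not stated, so p-values measure the spread between these libraries.

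Entries with status OK for total and polysomal RNA of mutant-labelled worms were kept once per gene name and locus (263 of them joined several names). A gene passed at a deposited q-value under 0.05. RNA classes, coded residues (longest coding sequence) and symbols came from Ensembl release 115 of WBcel235; the 41875 entries hold 46218 gene IDs. Deposited starts count from 0, and 1 was added. Genes at 0 in a fraction were left out of medians (126 at 0 in polysomal RNA, 58 of them passing, and 3 in total RNA).

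Standard errors came from the ratio of fold change to test statistic. In 1680 genes whose deposited p lay between 0.001 and 0.01, its median of 0.0036 compared with 0.0310 computed from the statistic, and with 1.60e-05 once variances were divided by 4 libraries. Neither matches, so ± uses the statistic as it stands, a choice made after seeing the data, and the Wald test between strains is given both ways. That test took all libraries as independent and was tested on simulated data. Python 3.11.15, pandas 2.3.3 and scipy 1.17.1 were used.

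The genes and the 45 lists were chosen with earlier results of these data known. Genes were named by rule: the proline list, the 10 largest rises and falls at 1 FPKM or more in both fractions and 5 in 1, up to 4 members of a list in its main direction and 2 in the other, the most abundant and most changed non-coding RNAs, the 5 largest strain differences each way, and the extremes of a list. Others, such as paralogue pairs, the 2 subgroups of ribosomal and tRNA synthetase genes and members that did not pass, were picked after their values were seen.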

Additional observations from a re-analysis of the deposited data

Results flagged for a closer look

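Polysome association differed between the strains in the following genes (mutant-labelled minus wild type, log2, Wald test with divided variances from the Cuffdiff statistics, adjusted p under 0.05). Under variances as the statistics stand, an adjusted p under 0.05 held for unc-49 (2.59), Y57G11C.38 (2.32), nspc-7 (2.21), T09B9.1 (1.79) and F33D11.16 (-4.60). It did not hold for the others. Of these, K07H8.9 (1.44), spe-44 (1.36) and rpn-6.2 (0.62) were higher in mutant-labelled worms. The entry joining D1046.18 and cfim-2 (-2.73), the small nuclear RNAs C27H5.11 (-2.47) and C53B4.9 (-2.07), rpa-4 (-1.54), nspc-15 (-1.39) and nduo-2 (-1.11) were lower. So were the oocyte and germline genes cpg-1 (-0.91), egg-1 (-0.74), oma-1 (-0.71), meg-1 (-0.63) and rme-2 (-0.53), the ribosomal protein genes rpl-38 (-0.60), rpl-41.2 (-0.52) and rpl-39 (-0.49), the pseudogene T13F2.9 (-0.74) and the collagen gene bli-6 (-0.67). For C53B4.9 neither strain's own log2 value passed in the authors' deposited table.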

How the results depend on the processing

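No paired analysis was possible because the table holds 1 pooled value per group, and for the same reason no library could be left out. Counts of genes that passed stayed within 1.5 times under all 7 alternatives, at 2646 to 3685 higher and 2905 to 4162 lower against 3682 and 4159. The number of the 45 lists with a median above 0 was 33, and 29 to 34 under 7 alternatives. Strain differences went from 150 higher and 170 lower to 7 and 2 with variances as the statistics stand, and to 65 and 97 at a threshold of 0.01. Unadjusted p under 0.05 were 1850 and 199 with the first and second variance.

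Centring on coding genes turned the medians of all genes (-0.0897), protein-coding genes (-0.0345), ribosomal proteins (-0.0034), splicing factors (-0.0520), neuropeptides (-0.0793) and chemoreceptors (-0.0582). By construction this lowers every value by 0.12. At 1 FPKM or more in both fractions antisense RNAs came to 0.0325, F-box genes to 0.0320, pseudogenes to -1.64, other non-coding RNAs to -2.51 and long intergenic RNAs to -1.33. At 5 FPKM in 1 fraction chemoreceptors came to -0.58, F-box genes to -0.0436 and other non-coding RNAs to -3.41. A pseudocount of 0.1 gave -2.09 for pseudogenes, -2.53 for other non-coding RNAs, -4.54 for small nucleolar, -2.42 for long intergenic and -4.82 for small nuclear RNAs. A pseudocount of 1, which shrinks low genes, gave -0.88, -1.23, -1.07 and -3.62 for pseudogenes, other non-coding, long intergenic and small nuclear RNAs, -0.52 for antisense RNAs, -1.98 for histones, 0.19 for cuticlins, 0.36 for C-type lectins and -0.56 for MATH and BATH genes. Small nuclear RNAs with 1 gene name came to -4.04. Classed by the geometric mean, genes under 1 FPKM came to -0.10 and those from 20 to 100 to 0.0544, and genes of 400 to 800 residues at 5 FPKM or more came to -0.0074. The cause of the other changes was not tested. Of 369 alternatives for list and class medians, 340 moved by less than the median standard error in the same direction.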

Other observations

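Terms of the Gene Ontology in the authors' deposited table, taken after the values were seen and without a test, gave further groups at both ends. Over 473 terms with 20 or more tested coding genes, the 4 lowest medians were those of nucleosome (-2.53, 49 lower and 6 higher of 70), nucleosomal DNA binding (-2.51, 13 lower and 0 higher of 20), nucleosome assembly (-2.23, 43 lower and 6 higher of 62) and protein heterodimerization activity (-2.10, 59 lower and 2 higher of 82). Lipid droplet (-1.39, 13 lower and 5 higher of 23) and mRNA 3′-UTR binding (-1.19, 19 lower and 2 higher of 28) came next. The highest were pseudopodium (0.99, 34 higher and 1 lower of 37), proteolysis in protein catabolism (0.72, 38 higher and 2 lower of 45), cellular oxidant detoxification (0.71), tricarboxylic acid cycle (0.70, 22 higher and 0 lower of 25), fatty acid beta-oxidation (0.67, 18 higher and 0 lower of 22) and peroxisome (0.66). The terms share genes with the lists above, such as histones and sperm proteins.

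Coding genes on chromosome X stood higher than those on the autosomes. Their median was 0.30 over 2024 genes, with 33.9% higher and 12.7% lower, against medians from -0.07 (chromosome I) to 0.16 (chromosome V). At 5 FPKM or more in both fractions the X stood at 0.48 over 848 genes, with 55.4% higher and 6.60% lower.

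Genes with long 3′ untranslated regions stood lower: the median was 0.29 from 50 to 100 bases (3259 genes) and -0.21 at 400 bases and over (1562 genes), with a Spearman's rho across genes of -0.140, and of -0.238 at 5 FPKM or more. For 5′ untranslated regions rho was -0.0149 and 0.0124, but genes with the longest ones stood low: the median was -0.18 from 200 to 400 bases (505 genes) and -0.44 at 400 bases and over (326 genes), where 40.8% were lower. At 5 FPKM or more in both fractions these classes came to 0.0389 and -0.0074. Exon number gave -0.147 and -0.221. These features go with coding length, and their separate parts were not tested.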
